A study of Homo sapiens with 6 samples.

Results

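The simple and stress keratins examined here were KRT7, KRT8, KRT18, KRT19, KRT80, KRT5, KRT6A, KRT14, KRT17 and KRT20. They were found by gene name, and the 10 names stood on 11 of the 38648 listed rows, since KRT20 was listed on chromosome 17 and again, as KRT20-2, on an alternate scaffold. The cells were HK-2, an immortalized line grown from human proximal tubule epithelium, transduced with a negative control lentivirus (IR+NC-LV, n = 3 libraries) or a PRDM16 overexpression lentivirus (IR+PR-LV, n = 3 libraries) and selected with puromycin. Cells of both groups received 8 Gy of X-rays and were harvested on day 7, so no unirradiated cells were compared. The cells are numbered within each group in the labels, but nothing states that they were separate cultures, and the p-values therefore measure the spread between these libraries, which may be technical. In bulk RNA, fewer cells with a transcript and less of that transcript per cell cannot be told apart.

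Keratins are the intermediate filament proteins of epithelial cells. A filament is built from type I and type II keratins in equal parts, so that a cell needs members of both types. KRT8 (type II) and KRT18 (type I) are the usual partners of simple, single-layered epithelia such as the renal tubule, while KRT7 (type II) and KRT19 (type I) are best known from ducts and other simple epithelia. KRT80 is a type II keratin found in many epithelia. KRT5 (type II) and KRT14 (type I) are the pair of basal cells in stratified epithelia, KRT6A (type II) and KRT17 (type I) are known as keratins of wounded or stressed epidermis, and KRT20 (type I) marks gut epithelium and the surface cells of the urothelium.

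Total counts ranged from 13407074 to 28540041 per library. PRDM16, the delivered gene, had 2, 0 and 1 counts in IR+NC-LV against 14, 10 and 8 in IR+PR-LV, so every IR+PR-LV library was above every IR+NC-LV library. Within groups, IR+PR-LV replicate 1 and IR+NC-LV replicate 3 stood farthest from the others. The chi-square per degree of freedom between libraries was 11.6 and 13.2 for the pairs with IR+PR-LV replicate 1 and 4.25 for the remaining IR+PR-LV pair, and it was 8.1 and 11.1 for the pairs with IR+NC-LV replicate 3 and 3.44 for the remaining IR+NC-LV pair. Of 14 proximal tubule markers, 6 had a mean of at least 1 TPM (a level scaled by transcript length and library total). PAX8 (137.5 TPM), CDH6 (73.8 TPM) and GGT1 (69.9 TPM) were the highest of them, whereas the transporter and receptor genes SLC22A6 and LRP2 had 1 and 3 counts in all 6 libraries together and the transcription factor gene HNF4A had 4. The epithelial markers CLDN1 (322.2 TPM) and EPCAM (53.3 TPM) were present, and CDH1, which encodes E-cadherin, was at 0.420 TPM. None of the 5 urothelial markers reached 1 TPM, and their summed level was 0.594 to 2.17 TPM per library, with UPK3A at 0 counts. The basal keratin regulator TP63 had 20 counts in all. Of 6 fibroblast markers, 2 had a mean of at least 1 TPM, LUM (122.7 TPM) and COL1A1 (10.5 TPM), and PDGFRB (0.788 TPM), COL3A1 (0.588 TPM), DCN (0.0852 TPM) and PDGFRA (0.0712 TPM) did not. Of the 3 leukocyte markers, CD68 was at 176.9 TPM, PTPRC and CD3E had 10 and 2 counts, and the 3 endothelial markers summed to at most 0.544 TPM in any library.

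The 10 keratins fell into 3 tiers in these cells. KRT8, KRT18 and KRT19 were among the 250 rows with the highest mean TPM, KRT80 and KRT7 followed at about 100 TPM, and the basal, stress and gut keratins were at or near 0. The 5 keratins of the upper tiers made up 99.919% to 99.995% of the summed TPM of the 10 genes in each library. That sum was 2198, 2113 and 2173 TPM in IR+NC-LV against 2579, 2189 and 2080 TPM in IR+PR-LV, or 0.208% to 0.258% of all TPM. IR+PR-LV replicate 1 was the highest of the 6, and the other libraries of both groups overlapped.

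**Figure D1:**
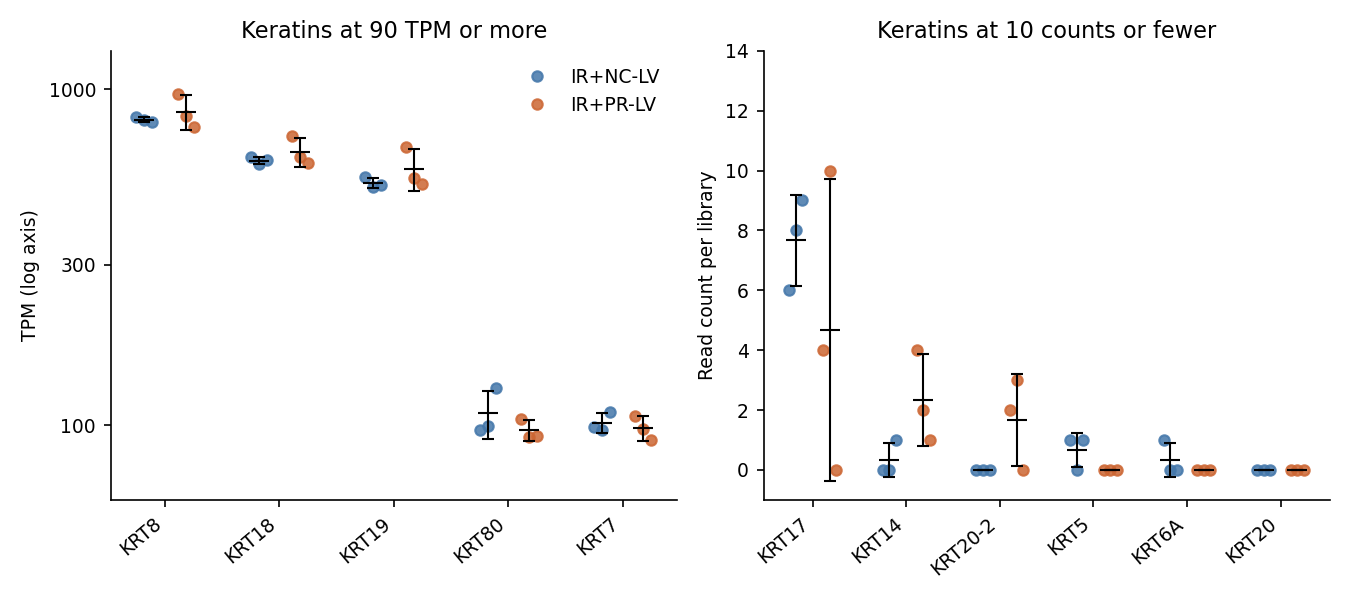
Left, TPM per library on a log axis for the 5 keratins at 90 TPM or more. Right, read counts per library for the listed rows at 10 counts or fewer. Points are libraries (n = 3 per group), and the black marks are the mean and SD. KRT8, KRT18 and KRT19 sit above 500 TPM in all 6 libraries, KRT80 and KRT7 between 90.6 and 128.9 TPM, and KRT20 at 0 counts throughout.

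KRT8, the type II keratin of simple epithelia, had the highest level of the 10. Its row spans 12:52897191-52949860 on the minus strand of hg38, with 2247 exon bases. TPM was 826.6, 806.5 and 799.7 in IR+NC-LV against 969.0, 829.3 and 771.9 in IR+PR-LV. The IR+PR-LV libraries thus held both the highest and the lowest value. By mean TPM over the 6 libraries (833.8) KRT8 was in position 141, and in single libraries it was between 124 and 158.

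KRT18, its type I partner, lies beside it on the opposite strand (12:52948855-52952906, 1497 exon bases). TPM was 627.9, 597.6 and 613.6 in IR+NC-LV against 723.1, 625.8 and 602.0 in IR+PR-LV. Its mean of 631.7 TPM was in position 211. The levels of KRT8 and KRT18 did not overlap, and KRT8 was 1.32-fold higher by mean TPM.

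KRT19, the type I keratin of ducts, is on chromosome 17 (17:41523617-41528308, 1390 exon bases). TPM was 546.6, 511.2 and 519.7 in IR+NC-LV against 673.7, 543.1 and 522.1 in IR+PR-LV, with a mean of 552.7 TPM in position 250. Across libraries, the ranges of KRT18 and KRT19 overlapped, but KRT18 was the higher of the pair in 6 of 6 libraries.

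A gap of 5.39-fold in mean TPM separated KRT19 from KRT80 (12:52168996-52192014, 4401 exon bases). KRT80 was at 97.1, 99.7 and 128.9 TPM in IR+NC-LV against 104.7, 92.3 and 92.9 TPM in IR+PR-LV. KRT7 (12:52233243-52252667, 2904 exon bases) was at 99.0, 97.0 and 109.7 TPM in IR+NC-LV against 106.8, 97.2 and 90.6 TPM in IR+PR-LV. These neighbours in the order did not differ beyond their spread, since KRT80 was above KRT7 in 3 of 6 libraries. Their mean levels were 102.6 and 100.1 TPM, in positions 1975 and 2027.

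**Figure D2:**
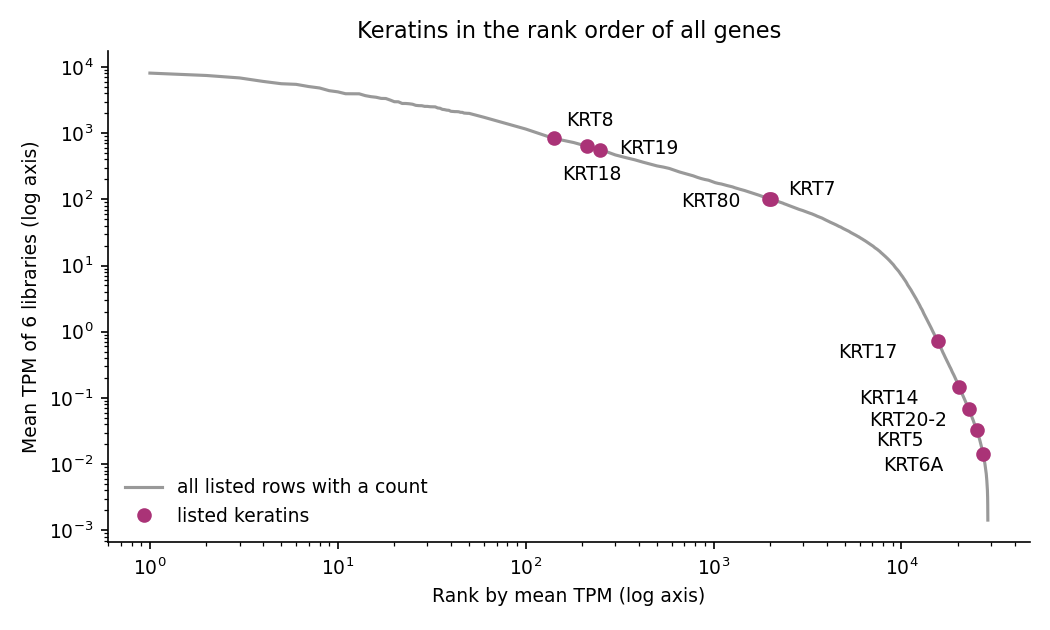
Mean TPM over 6 libraries against its rank among the listed rows with a count, both on log axes. The grey line is all rows and the purple points are the keratins, from KRT8 in position 141 down to KRT6A in position 27238. KRT20 on chromosome 17, with 0 counts, is not drawn.

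The stress keratin KRT17 (17:41619442-41624575) was the highest of the remaining genes, at 0.718 TPM on average, 139-fold below KRT7. It had 6, 8 and 9 counts in IR+NC-LV against 4, 10 and 0 in IR+PR-LV. Its partner in stressed epidermis, KRT6A (12:52487176-52493257), had 1 count, in IR+NC-LV replicate 1. Both stress keratins were thus close to the limit of detection in irradiated cells of either group.

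Of the basal pair, KRT5 (12:52514575-52520394) had 1, 0 and 1 counts in IR+NC-LV against 0 in each IR+PR-LV library. KRT14 (17:41582279-41586895) had 0, 0 and 1 counts in IR+NC-LV against 4, 2 and 1 in IR+PR-LV. Neither reached 0.5 TPM in any library. KRT20 on chromosome 17 (17:40875889-40885242) had 0 counts throughout, and KRT20-2 had 2 and 3 counts in IR+PR-LV replicates 1 and 2 and 0 in the other libraries. A count of 0 in 115430886 counts allows up to 0.026 CPM (counts scaled by the library total), taken as 3 counts. For KRT20 this limit holds for the row on chromosome 17 alone. How reads matching both KRT20 and KRT20-2 were counted was not given. Such limits, and the intervals of counts given here, come from pooled counts, so they cover counting error alone and not the spread between libraries. The reads carried no molecular identifiers, so repeat reads of the same molecule could not be told apart. The intervals may therefore be too narrow.

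To ask whether keratin expression differed with the PRDM16 lentivirus, the groups were compared with edgeR on the counts. The comparison covered the 15340 rows that passed a filter on low counts. Of the 11 keratin rows, 5 passed the filter (KRT8, KRT18, KRT19, KRT80 and KRT7) and 6 did not. None of the 5 passed the threshold of 0.05 on the adjusted p by edgeR, and none passed it by DESeq2. None had an unadjusted p below 0.05, and for none were the groups apart. Over all rows tested, 0.0652% passed the adjusted threshold, 10.5% had an unadjusted p below 0.05 and 17% had groups that did not overlap, so a count of 0 among 5 keratins is near that background. The log2 fold changes of the 5 ranged from -0.12 to 0.18 with a median of 0.12, beside a median of 0.00 and a median absolute value of 0.10 over all rows tested. With 3 libraries a group, the smallest p of a two-sided exact permutation test is 0.1.

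KRT8 was at 571.1, 567.4 and 515.6 CPM in IR+NC-LV against 677.9, 585.1 and 532.2 CPM in IR+PR-LV. The means were 551.4 ± 31.1 and 598.4 ± 73.8 CPM (SD, n = 3 each). The log2 fold change was 0.12 ± 0.09 (SE; 95% interval -0.09 to 0.32), with an adjusted p of 0.694 by edgeR. The groups overlapped, and the difference was smaller than the spread within IR+PR-LV.

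For KRT18, IR+NC-LV was at 289.1, 280.1 and 263.6 CPM and IR+PR-LV at 337.0, 294.1 and 276.5 CPM. The log2 fold change was 0.12 ± 0.08 (SE; 95% interval -0.06 to 0.30), with an adjusted p of 0.633 by edgeR. KRT19 was at 233.6, 222.5 and 207.3 CPM in IR+NC-LV against 291.6, 237.0 and 222.7 CPM in IR+PR-LV. Its log2 fold change of 0.18 ± 0.10 (SE; 95% interval -0.05 to 0.40) was the largest of the 5, with an adjusted p of 0.571 by edgeR, and here too the groups overlapped.

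These 3 differences rested largely on IR+PR-LV replicate 1, which held the highest CPM of KRT8, KRT18 and KRT19 among the 6 libraries. Relative to the mean of the 6 libraries, it was at 118% for KRT8, 116% for KRT18 and 124% for KRT19. Without it, the log2 fold changes were 0.02 for KRT8, 0.04 for KRT18 and 0.06 for KRT19. IR+NC-LV replicate 3 held the lowest CPM of the same 3 genes, and without it the log2 fold changes were 0.07, 0.09 and 0.14. Leaving out any other library made all 3 larger. They were largest for KRT8, KRT18 and KRT19 without IR+PR-LV replicate 3, at 0.20, 0.18 and 0.26.

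KRT80 was at 131.4, 137.4 and 162.7 CPM in IR+NC-LV against 143.5, 127.5 and 125.4 CPM in IR+PR-LV. The log2 fold change was -0.12 ± 0.09 (SE; 95% interval -0.33 to 0.08), with an adjusted p of 0.687 by edgeR. Its highest value was in IR+NC-LV replicate 3, the library that was lowest for KRT8, KRT18 and KRT19, and without that library the log2 fold change of KRT80 was -0.02. It was -0.19 without IR+NC-LV replicate 1 and -0.18 without IR+PR-LV replicate 1.

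KRT7 had the narrowest spread, at 88.4, 88.2 and 91.4 CPM in IR+NC-LV against 96.6, 88.6 and 80.8 CPM in IR+PR-LV. The log2 fold change was -0.01 ± 0.08 (SE; 95% interval -0.18 to 0.16), with an adjusted p of 0.972 by edgeR. Its sign turned with the library left out: the log2 fold change was -0.07 without IR+PR-LV replicate 1 and 0.05 without IR+PR-LV replicate 3, and omitting IR+NC-LV replicate 3 gave 0.01. The coefficient of variation of KRT7 over the 6 libraries was 5.78%, against 12.4% for KRT19 and a median of 10.1% over all rows tested.

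**Figure D3:**
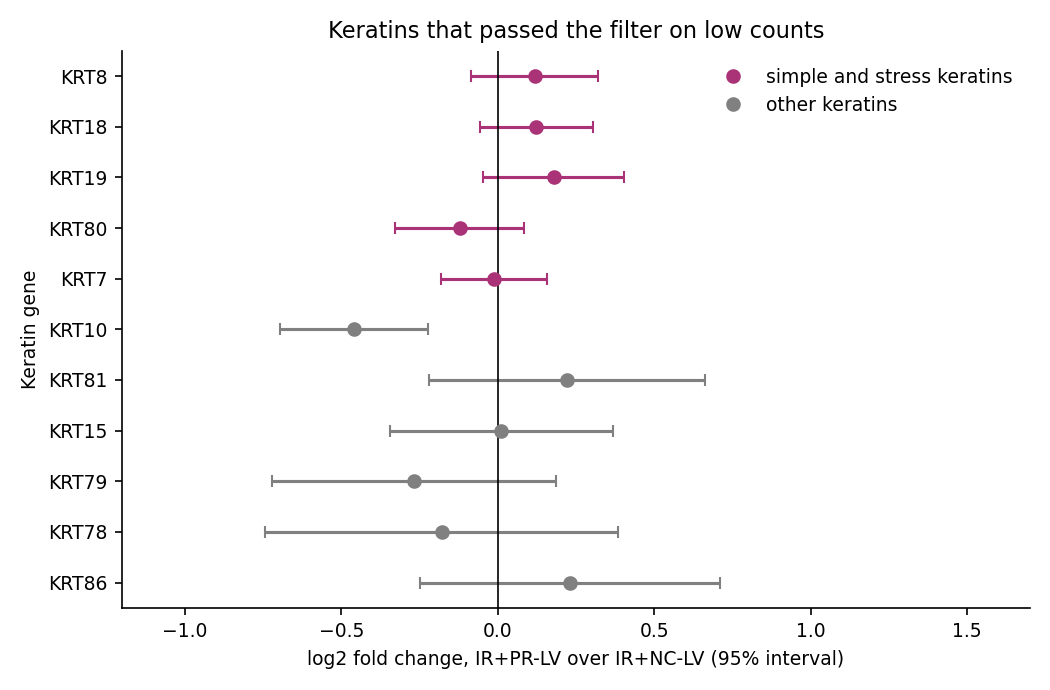
Log2 fold change of IR+PR-LV over IR+NC-LV with its 95% interval from edgeR, for the 5 simple keratins that passed the filter (purple) and the other keratins with a mean of at least 1 TPM (grey). The intervals of the 5 purple points include 0, and KRT10 is the point whose interval lies below 0.

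The low keratins were compared on counts, without a fit. The 23 counts of KRT17 in IR+NC-LV stood against 14 in IR+PR-LV, a ratio of 0.486 of the rates per total count (exact 95% interval 0.231 to 0.985). In CPM it was at 0.3577, 0.3799 and 0.6478 in IR+NC-LV against 0.2382, 0.3576 and 0 in IR+PR-LV. The groups were apart only by the fourth decimal, the two-sided exact permutation p was 0.1, and an edgeR fit without the filter gave an adjusted p of 0.667. KRT14 had 1 count against 7, a ratio of 5.58 with an exact 95% interval of 0.717 to 252, and the groups overlapped. For KRT5, KRT6A and KRT20-2 the counts were too few to show a difference at this depth.

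The levels of KRT8, KRT18 and KRT19 varied together from library to library. In order of IR+NC-LV replicates 1, 2 and 3 and IR+PR-LV replicates 1, 2 and 3, the CPM ratio of KRT8 to KRT18 was 1.98, 2.03, 1.96, 2.01, 1.99 and 1.92. Its coefficient of variation was 1.87%, where the CPM of KRT8 and KRT18 alone varied by 9.88% and 8.73%. The ratio of KRT8 to KRT19 varied by 3.21% and that of KRT18 to KRT19 by 3.29%. By contrast, the ratio of KRT8 to KRT80 varied by 13.1% and that of KRT7 to KRT19 by 9.61%.

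Likeness was also measured as the SD over the 6 libraries of the log2 CPM ratio of a pair of genes, a measure chosen after these values were seen. Of the 15339 other rows tested, KRT18 was the one in position 6 by likeness to KRT8 (SD 0.027). KRT8 was likewise in position 6 for KRT18. The 3 rows closest to KRT8 had an SD of 0.0196 to 0.0241, and the 3 closest to KRT18 had 0.0245 to 0.0268. None of these was a keratin, so the likeness was not particular to the pair. KRT19 was in position 90 for KRT8, and KRT7 and KRT80 were in positions 1575 and 8169. The libraries share their depth and normalization for every gene, so this is a description of 6 libraries. KRT8 and KRT18 also share 135 exon bases on opposite strands, 6.01% of the exon bases of KRT8 and 9.02% of those of KRT18. The strand setting of the counting was not given in the sources used here, so reads from that stretch cannot be told apart, and the part of the shared bases in the ratio was not tested. KRT7 likewise shares 221 exon bases, 7.61% of its own, with the antisense gene KRT7-AS, which had 261 counts in all and a mean of 4.40 TPM.

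**Figure D4:**
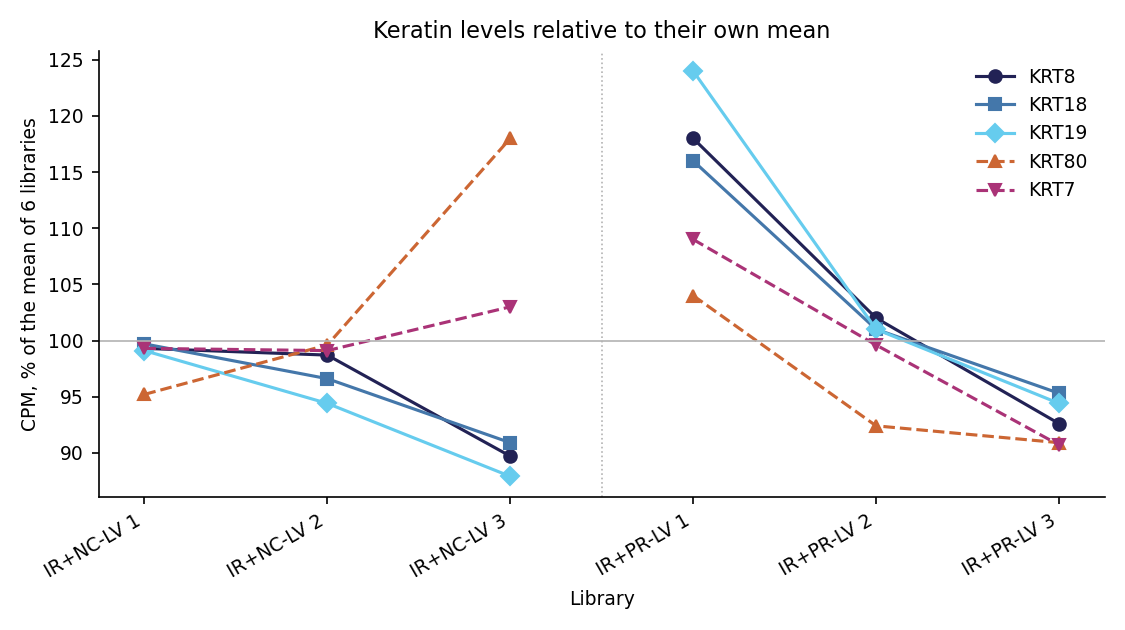
CPM of the 5 expressed keratins in each library, in percent of the gene's own mean over the 6 libraries. Lines join libraries of a group only to show which points belong to a gene, and the library numbers have no order. KRT8, KRT18 and KRT19 lie close together in each library, from 87.9% to 90.9% in IR+NC-LV replicate 3 and from 116% to 124% in IR+PR-LV replicate 1, while KRT80 is at 118% in IR+NC-LV replicate 3.

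Type I transcripts exceeded type II transcripts in every library, and protein was not measured in these data. Summed over the listed genes, type II keratins had 1023, 1003 and 1038 TPM in IR+NC-LV against 1181, 1019 and 955.4 TPM in IR+PR-LV. Type I keratins had 1175, 1110 and 1135 TPM in IR+NC-LV against 1398, 1170 and 1124 TPM in IR+PR-LV. The ratio of type II to type I TPM was 0.870, 0.904 and 0.915 in IR+NC-LV against 0.844, 0.871 and 0.850 in IR+PR-LV (0.896 ± 0.023 and 0.855 ± 0.014, SD, n = 3 each). It was below 1 in every library, and the groups overlapped. The log2 ratio of the summed TPM of all 10 genes, IR+PR-LV over IR+NC-LV, was 0.08, and without IR+PR-LV replicate 1 it was -0.02. Both quantities are given without a test.

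**Figure D5:**
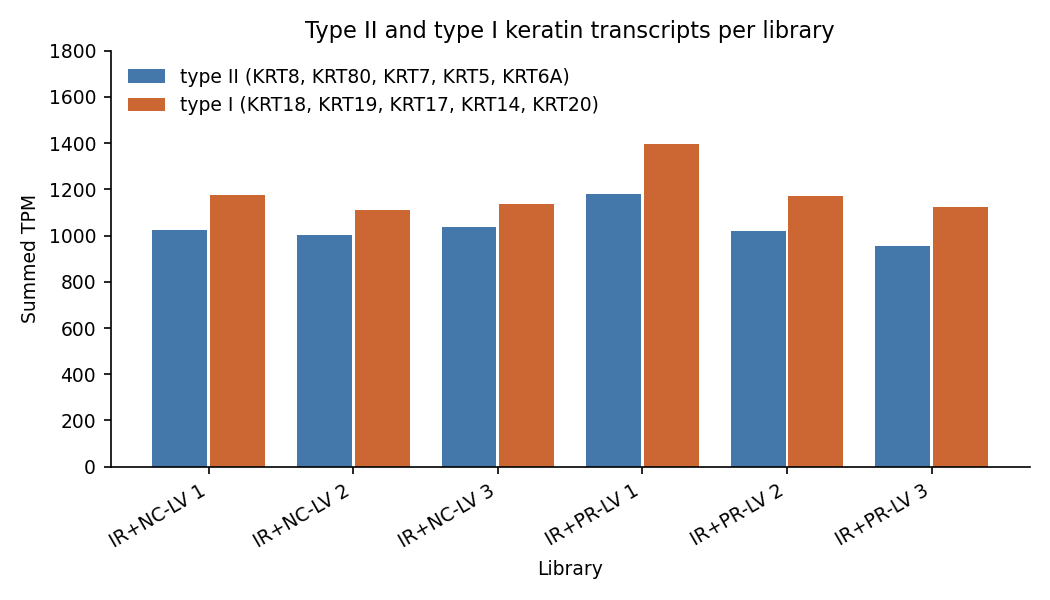
Summed TPM of type II and type I members in each library, as bars from 0. Type I exceeds type II in all 6 libraries, and both bars are tallest in IR+PR-LV replicate 1 (1181 and 1398 TPM).

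Beyond the 10 genes, 54 rows carried other keratin genes, of which 21 had 0 counts and 6 had a mean of at least 1 TPM. The highest was KRT10, the type I keratin of differentiating epidermis, at 27.4 TPM, below KRT7. It was followed by the hair keratin gene KRT81 (11.9 TPM), the basal type I keratin gene KRT15 (4.76 TPM), KRT79 (2.52 TPM), KRT78 (1.10 TPM) and KRT86 (1.01 TPM). KRT16, KRT6B and KRT6C, close relatives of the stress and basal keratins listed, had 15, 1 and 1 counts. Of the 7 other keratins tested, none passed the adjusted threshold by edgeR or by DESeq2. By edgeR 1 (KRT10) had an unadjusted p below 0.05, beside 10.5% of all rows tested.

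KRT10 was at 23.7, 20.3 and 19.0 CPM in IR+NC-LV against 15.2, 14.6 and 16.1 CPM in IR+PR-LV. The groups did not overlap, as was so in either direction for 17% of all rows tested. The log2 fold change was -0.46 ± 0.10 (SE), with an adjusted p of 0.204 by edgeR and 0.0725 by DESeq2. Without the filter on low counts edgeR gave an adjusted p of 0.0377, in a setting where 342 rows passed against 10 with the filter. KRT10 passed in no other alternative. Whether its fold change differs from those of the 5 simple keratins was not tested.

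Keratin filaments are anchored at desmosomes, the cell-cell junctions, and hemidesmosomes, the contacts with the basement membrane. Of 18 desmosome and cytolinker genes, 12 were tested, and none passed the adjusted threshold by edgeR or DESeq2. Their median log2 fold change was 0.08. The highest were DSG2 (148.8 TPM), a desmosomal cadherin, PERP (93.4 TPM) and DSP (71.8 TPM), which encodes desmoplakin, the protein that ties keratins to the desmosome. DSC3, another desmosomal cadherin, had the largest log2 fold change of the list (0.27, unadjusted p 0.0131, adjusted p 0.369 by edgeR), and PKP3 the smallest (-0.07). The 5 hemidesmosome genes had a median of -0.06, from COL17A1 at -0.37 to ITGA6 at 0.09. None of them passed by either tool, and none had an unadjusted p below 0.05 by edgeR. By level, CD151 (196.7 TPM), DST (44.3 TPM) and ITGA6 (19.6 TPM) led them.

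Of the other intermediate filament genes, VIM stood above the keratins in level, and the rest were below KRT19. VIM, which encodes vimentin, the filament protein of mesenchymal and many cultured cells, had a mean of 1841 TPM. In CPM it was at 1224, 1207 and 1171 in IR+NC-LV against 1246, 1228 and 1227 in IR+PR-LV. The groups were apart by a narrow margin, with a log2 fold change of 0.04 and an adjusted p of 0.83 by edgeR. In this list 4 of the 13 genes tested had groups apart, VIM among them, beside 17% of all rows tested. The lamin genes LMNB1 (178.7 TPM) and LMNB2 (178.5 TPM) followed. Of 13 such genes tested none passed by edgeR or DESeq2, and 1 had an unadjusted p below 0.05 by edgeR, beside 10.5% of all rows tested. This was the neurofilament gene NEFH, with the largest log2 fold change (0.29, adjusted p 0.359 by edgeR). GFAP had the smallest (-0.40), and the median was 0.05.

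Among 11 genes for regulators of keratin transcription, 6 were tested, with a median log2 fold change of -0.15. None passed the adjusted threshold by edgeR, where 2 had an unadjusted p below 0.05, beside 10.5% of all rows tested. By DESeq2, 2 passed the adjusted threshold, as did 1.04% of all 15650 rows with an adjusted p from that tool. Both counts were of KLF5 and KLF4, Krüppel-like transcription factors of epithelia. KLF5 was at 81.3, 72.3 and 102.9 CPM in IR+NC-LV against 56.0, 52.7 and 58.9 CPM in IR+PR-LV. The log2 fold change was -0.61 ± 0.12 (SE), with an adjusted p of 0.123 by edgeR and 0.000259 by DESeq2. KLF4 was at 20.6, 22.7 and 24.3 CPM in IR+NC-LV against 16.6, 15.1 and 15.7 CPM in IR+PR-LV, with a log2 fold change of -0.52 ± 0.09 (SE) and an adjusted p of 0.0999 by edgeR and 0.0126 by DESeq2. For both genes every IR+PR-LV library was below every IR+NC-LV library. The groups were apart, in either direction, in 17% of all rows tested. The call depended on the tool. The epithelial factor gene ELF3 had the highest level of the list (130.2 TPM), ahead of KLF5 (65.8 TPM) and KLF4 (20.7 TPM), and a log2 fold change of -0.12, and TFAP2C had the largest (0.00). CDX2, the intestinal factor, had 0 counts.

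Of 10 genes whose products modify or turn over keratin filaments, all were tested and none passed by edgeR or DESeq2. None had an unadjusted p below 0.05 by edgeR, and the median log2 fold change was 0.02. The kinase genes CSNK1A1 (236.5 TPM) and AURKB (161.5 TPM) had the highest levels. SFN, which encodes the epithelial 14-3-3 protein, had the largest log2 fold change (0.35, adjusted p 0.482 by edgeR) and AURKB the smallest (-0.13).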

How the data were processed

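RNA was extracted from irradiated HK-2 cells, libraries were prepared with a NEBNext Ultra RNA kit, and fragments were sequenced from both ends on an MGI instrument. Per the labels and the submitters' processing notes, CASAVA, featureCounts 2.0.1, DESeq2 1.16.1 and hg38 were used; the aligner, the strand setting and the treatment of reads with several matches were not given in the sources used here. For each library the authors deposited the read count per gene without normalization, with gene lengths, TPM and FPKM. The deposited TPM and FPKM followed from count, length and total, with differences of at most 2e-11 and 5.2e-12. TPM was used for levels between genes. FPKM entered no comparison.

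Counts were compared with edgeR 4.0.16 in R 4.3.3 (filterByExpr, minimum count 10, minimum total 15, TMM factors 0.981 to 1.04, glmQLFit and glmQLFTest, Benjamini-Hochberg adjustment over 15340 rows, threshold 0.05). CPM values are TMM-normalized. Standard errors and 95% intervals came from the same fit, and the exact binomial intervals of pooled counts from total counts. Total counts were 13407074 to 28540041 per library, and 3 counts correspond to 0.105 to 0.224 CPM. The procedure was tested on simulated data with changes larger than those of the keratins. That test does not show whether changes as small as theirs would be found.

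The keratins and the gene lists were chosen with earlier results of these data known. The text names the 10 keratins, PRDM16, other keratins with a mean of at least 1 TPM, antisense genes of the members, and of each list the 3 highest by TPM, the largest and smallest log2 fold change and any gene past the threshold, apart from 2 list genes that are not reported here. KRT16, KRT6B, KRT6C, TP63, CDX2, KLF4 and the cell markers named for their presence or absence were chosen after their values were seen where the rule did not name them. Where a gene of a list stood on several rows, its row with most counts was taken. Exon overlaps came from the coordinates in the files. Alternatives were DESeq2 1.42.0, normalization by RLE or upper quartile, other filters, a block by replicate number, omission of each library, summing of listed copies, and other thresholds.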

Additional observations from a re-analysis of the deposited data

How the results depend on the processing

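None of the 10 keratins passed the threshold in any of the 15 alternatives run. KRT8, KRT18, KRT19 and KRT80 kept the sign of their log2 fold change throughout. The log2 fold change of KRT7 was above 0 with DESeq2 (7e-04), without IR+NC-LV replicate 3 (0.0076) and without IR+PR-LV replicate 3 (0.0515), and leaving out libraries gave a range from -0.0737 to 0.0515. Over all rows, 10 passed the threshold, against 163 with DESeq2, 342 without a filter, 1 at an adjusted p below 0.01 and 58 below 0.10. Leaving out 1 library gave between 1 and 28 rows, with 1 both without IR+NC-LV replicate 1 and without IR+PR-LV replicate 3, 16 without IR+NC-LV replicate 3, and 28 when IR+NC-LV replicate 2 was omitted. The cause was not tested. KLF4 and KLF5 passed with DESeq2 and without the filter (adjusted p 0.00805 and 1.06e-05 by edgeR), KLF4 also at the threshold of 0.10 (adjusted p 0.0999), and neither in the other alternatives.

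With the replicate number as a replicate block, 3 rows passed, and the log2 fold changes were 0.11 for KRT8, 0.12 for KRT18, 0.17 for KRT19, -0.12 for KRT80 and -0.01 for KRT7. Same-numbered libraries correlated by 0.009, 0.059 and 0.088 in their deviations from the group means, and not every library correlated best with its own number, so the numbers were not taken as pairs.

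Adding pseudogene counts gave no value, as 0 keratin pseudogene rows were listed. Among 150-base stretches of the longest coding transcripts in GENCODE, 10.02% of those of KRT18 also occurred in KRT8 (either strand), 4.8% of those of KRT7 in KRT7-AS, 9.25% of those of KRT6A in KRT6B or KRT6C, and 0 of those of KRT8, KRT19 and KRT80. The part of processed pseudogenes of KRT8 and KRT18 was not tested. Depth limits the basal, stress and gut keratins, where a library's value rests on at most 10 counts.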

Other observations

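The markers used to describe the cells were also compared between the groups. Of the 14 proximal tubule markers, 9 were tested, with a median log2 fold change of -0.09. The largest was that of the water channel gene AQP1 (0.15, adjusted p 0.822 by edgeR). None of the 9 had an unadjusted p below 0.05 or passed the adjusted threshold by edgeR or DESeq2. The summed level of the 14 was 272.6 to 333 TPM over the 6 libraries.

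All 5 general epithelial markers were tested and none passed by edgeR or DESeq2. EPCAM, a surface protein of simple epithelia, was at 23.7, 25.4 and 21.0 CPM in IR+NC-LV against 27.93, 28.96 and 25.0 CPM in IR+PR-LV. The groups overlapped, and the log2 fold change was 0.22 with an unadjusted p of 0.0494 and an adjusted p of 0.474 by edgeR. CDH1 had the largest log2 fold change of the list (0.59, adjusted p 0.569 by edgeR), on 71 counts in all, and CLDN1 the smallest (-0.09). TJP1, which encodes a tight junction protein, was at 3.58 TPM with a log2 fold change of 0.05 on its row with most counts, and at 6.43 TPM with 0.53 (adjusted p 0.631 by edgeR) over its 3 listed rows summed.

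Of 7 markers of the distal tubule and collecting duct, 2 were tested, the sodium channel gene SCNN1A (3.48 TPM, log2 fold change 0.04) and the water channel gene AQP3 (1.79 TPM, -0.34). CALB1 was at 0.607 TPM. None of the markers of that list, of the 6 fibroblast markers (4 tested, from PDGFRB at -0.06 to COL3A1 at 0.34) or of the 3 leukocyte markers passed by edgeR or DESeq2. Of these, CD68, the only leukocyte marker tested, had an unadjusted p below 0.05 (log2 fold change -0.22, adjusted p 0.405 by edgeR).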
